A study of Mus musculus with 3 samples.

Results

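The genes described here are 65 of the 31058 rows of the gene table, chosen by symbol alone: every semaphorin (Sema), plexin (Plxn), ephrin (Efna, Efnb), Eph receptor (Epha, Ephb), numbered netrin (Ntn), Slit and Robo gene, with Nrp2 added. They comprise 34 ligands, 27 receptors, 1 co-receptor (Nrp2) and 3 antisense RNAs of the Plxna4 locus. Their RNA was counted in single cells from kidney glomeruli of 3 healthy C57Bl/6 mice: a male, a female, and a female labelled RPC-ERαKO, in which the oestrogen receptor alpha gene was targeted. All of them had the transgenes Pax2.rtTA and TetO.Cre with the R26.Confetti reporter, and the third mouse, called female ERaKO below, had the ERalphaKO allele as well. Pax2.rtTA drives the doxycycline-dependent Cre from the Pax2 promoter. Doxycycline was given to all mice at 20 days of age, and tracing ran to 90 days. Each group is 1 library, so no difference between groups has a replicate check and no p-value is given.

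Guidance molecules were first described in growing axons and are used again in blood vessels and epithelia. Class 3 semaphorins are secreted and act through complexes of a neuropilin and a plexin, while most other semaphorins are bound to the membrane and bind plexins directly. Ephrins and Eph receptors both sit on cell surfaces and signal into both contacting cells, and Slits are secreted proteins that bind Robo receptors. In the glomerulus, the filter is built by podocytes on the outside of a fenestrated capillary that mesangial cells hold in place, and parietal cells line the capsule around it. Robo2 and ephrin-B1 have been placed at the slit diaphragm between podocyte foot processes, and ephrin-B2 with EphB4 marks the arterial and venous sides of vessels.

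Cells were grouped by clustering without the 65 genes and named from marker genes, and the unique molecular identifiers (UMIs) of each class were summed in each library and scaled to CPM, the gene's share of the UMIs of that class times 1e+06. A 3′ tag count does not grow with transcript length. Values are given in the order male, female, female ERaKO unless stated. Intervals are exact 95% Poisson or Clopper-Pearson intervals and cover counting error only. Kept cells numbered 3221, 2847 and 2471, with medians of 7325, 8857 and 8039 UMIs. The 65 genes held 77683, 89531 and 57605 of their UMIs, which is 0.246%, 0.264% and 0.205% of the total. Podocytes were the most numerous class, with 1210, 1415 and 812 cells, followed by endothelial cells with 770, 688 and 474. Mesangial cells were few in the female library (189, 44 and 135), and parietal cells numbered 121, 75 and 202. At most 25% mitochondrial UMIs were allowed, and 21.0%, 17.7% and 34.0% of all barcodes were above that, most in the female ERaKO library. Pairs of libraries shared 4, 8 and 4 barcodes. Classes were named from the marker genes, so those genes do not check the names. Of 19 podocyte markers, 18 were highest in podocytes in every library, and 7 of 14 parietal markers in parietal cells. Esr1, the targeted gene, gave 2, 1 and 3 UMIs in podocytes and 5, 0 and 5 in parietal cells. In proximal tubule cells it gave 13, 8 and 67 UMIs (9.92, 4.89 and 23.1 CPM), highest in the female ERaKO library, and in smooth muscle and renin cells 40, 25 and 25 (21.9, 20.0 and 14.5 CPM). The label of the female ERaKO library was thus not borne out by Esr1 RNA, and 3′ tags outside a deleted part would not check it. Every direction given for that library is that of the library so labelled.

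Promoters of 3 of the genes are shown. Sema3g and Sema3e were highest in podocytes in every library, and Efnb2 in endothelial cells. Each run holds the 250 bases before the RefSeq start on the gene's strand (GRCm38.p6). Capitals mark AGGAAG, a core that ETS factors bind, or its reverse CTTCCT, and CAGCTG, an E-box that reads the same on both strands.
Sema3g: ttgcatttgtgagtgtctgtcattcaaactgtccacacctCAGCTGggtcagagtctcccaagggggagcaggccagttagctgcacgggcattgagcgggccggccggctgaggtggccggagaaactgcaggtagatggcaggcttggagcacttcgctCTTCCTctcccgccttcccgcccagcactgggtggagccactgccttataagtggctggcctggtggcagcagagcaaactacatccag
Sema3e: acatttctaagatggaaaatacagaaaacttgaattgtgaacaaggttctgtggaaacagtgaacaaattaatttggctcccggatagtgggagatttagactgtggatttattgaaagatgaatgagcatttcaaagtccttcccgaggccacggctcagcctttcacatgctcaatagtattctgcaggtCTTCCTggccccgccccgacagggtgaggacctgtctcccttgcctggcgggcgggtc
Efnb2: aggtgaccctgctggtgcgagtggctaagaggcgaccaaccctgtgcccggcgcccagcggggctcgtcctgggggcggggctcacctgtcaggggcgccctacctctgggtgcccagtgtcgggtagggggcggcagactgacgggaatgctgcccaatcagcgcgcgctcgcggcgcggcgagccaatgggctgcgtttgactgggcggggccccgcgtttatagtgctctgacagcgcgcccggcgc
The Sema3g window lies on the plus strand at chr14:31217623-31217872, that of Sema3e on the plus strand at chr5:14025026-14025275, and that of Efnb2 on the minus strand at chr8:8661243-8661492. The Sema3g window holds 1 match of each motif, the Sema3e window 1 ETS match and no E-box, and the Efnb2 window neither, with a GC content of 72.0% against 60.4% for Sema3g and 48.0% for Sema3e. Of 32851 promoters of this length, 29.5% hold the ETS core and 13.0% the E-box. Of the 70 promoters of 54 of the 65 genes, 24 (34.3%) and 12 (17.1%) do. The 2 motifs do not overlap in these windows, and a match is a description of letters, not of binding.

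Of the 65 genes, 34 reached 30 CPM in at least 1 class in all 3 libraries. Another 21 did not, with 23 (Sema5b) to 898 (Sema4b) UMIs over all kept cells, and 10 had fewer than 20 UMIs in all kept cells. Among the 21, Plxna4, a class A plexin, missed the level in 1 library only, with 30.2, 32.5 and 28.2 CPM in endothelial cells. The near-undetected genes were Sema3a (11 UMIs), Sema4f (13), Plxnb3 (5), Epha5 (3), Slit1, Plxna4os2 and Plxna4os3 (1 each), and Epha8, Epha10 and Ntn5 (0). No gene of the 65 overlaps another deposited gene on its own strand, but 21 overlap one on the opposite strand, among them Ephb1, and whether counting used the strand is not given in the sources used here.

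For 29 of the 34 genes the class with the highest level was the same in all 3 libraries, which is 85.3% beside 62.2% of all 8323 genes that reached the same level. Endothelial cells held the highest level of 11 of the 34, beside 8.63% of all genes, and podocytes of 5, beside 9.76%. Mesangial cells held 5, beside 8.3%, parietal cells 3, beside 5.54%, and smooth muscle and renin cells 1, beside 3.66%. The 5 podocyte genes are 4 ligands and 1 receptor, the 5 mesangial genes are all receptors, and the 11 endothelial genes are 7 ligands and 4 receptors. Since classes were formed from the same cells, these are descriptions and not tests.

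**Figure D1:**
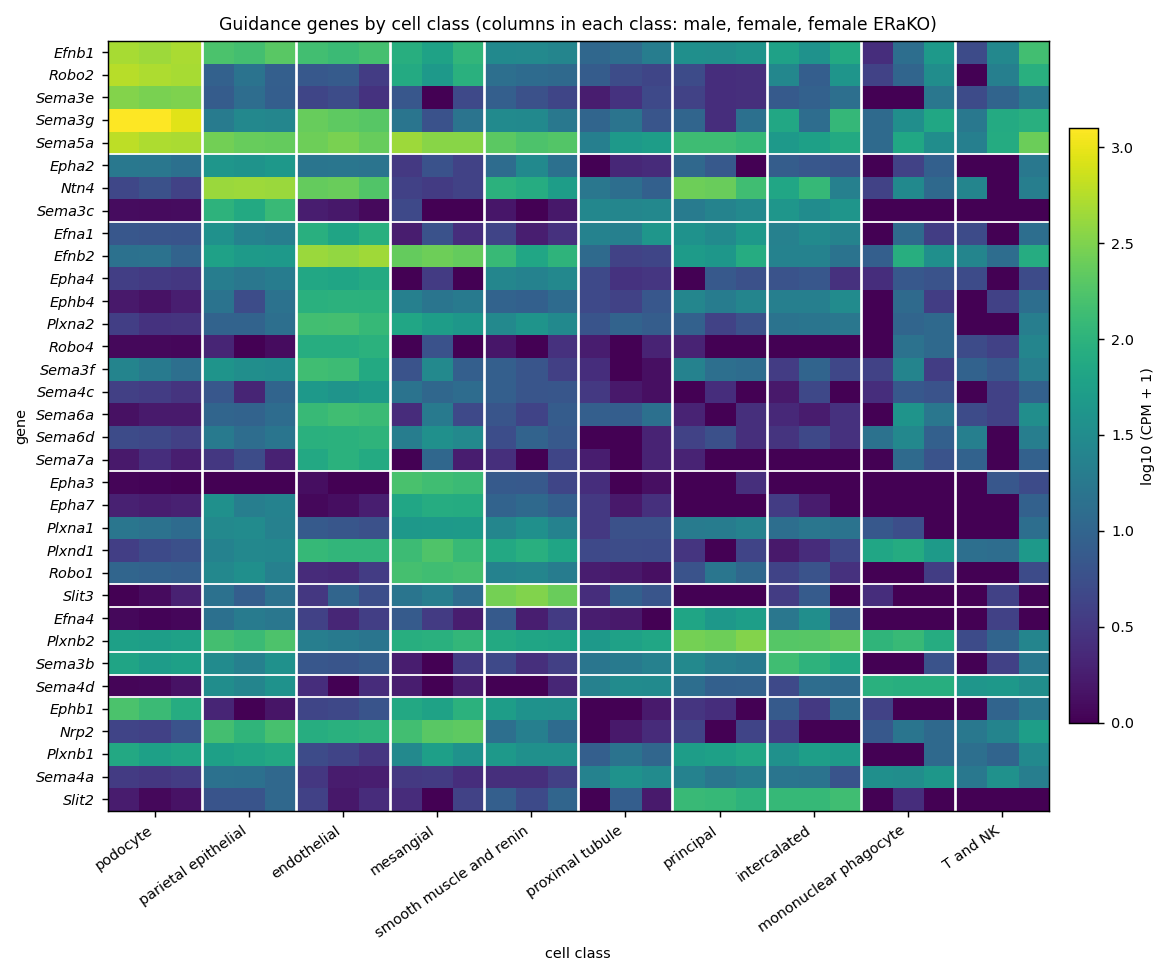
The 34 genes that reached 30 CPM (rows, grouped by the class with the highest level in all libraries, the 5 that differ last) by cell class (columns, 3 libraries within each class), coloured by log10 of CPM plus 1. The podocyte block holds 5 genes, the endothelial block 11 and the mesangial block 5, and Sema5a and Plxnb2 are spread over most classes.

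The ligand Sema3g came first in level among the members in podocytes in every library. The receptor Robo2 stood above the ligands Efnb1 and Sema3e in the male and female libraries. Sema3g (ENSMUSG00000021904, chr14:31217860-31230352, plus strand), a secreted semaphorin, reached 1229, 1250 and 902 CPM in podocytes (13675, 20771 and 6646 UMIs). The male and female values lie close together and the female ERaKO value is lower. A Sema3g UMI was found in 98.8%, 99.3% and 98.2% of podocytes, and after thinning every cell to 3000 UMIs in 93.1%, 93.4% and 87.1%. In proximal tubule cells, which serve as a class without the gene, 6.06%, 10.6% and 4.55% of cells had one (at most 4.04% after thinning).

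Endothelial cells were the only other ranked class in which Sema3g stood above the level that free RNA gives, in every library. Its level there was 236, 210 and 196 CPM, or 19.2%, 16.8% and 21.7% of the podocyte level. The podocyte markers, by their median, stood in endothelial cells at 1.47%, 1.86% and 1.04% of their podocyte level. Sema3g UMIs were found in 52.2%, 58.9% and 65.2% of endothelial cells, and in 33.6% to 35.5% after thinning.

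Sema3e, a secreted semaphorin that binds Plxnd1 without a neuropilin, was the most restricted of the podocyte ligands. It reached 328, 296 and 313 CPM in podocytes and exceeded the free RNA level in none of the 9 other ranked classes in all 3 libraries. Robo4, a Robo of endothelial cells, and Epha3, an Eph receptor, were as restricted by this measure in their own classes. In smooth muscle and renin cells the measure could show little for Epha3. Mesangial markers stood there at 21.7%, 16.8% and 19.7% of their mesangial level, and Epha3 at 4.12%, 4.60% and 2.75%. Sema5a, a membrane semaphorin, was instead spread over many classes. It had 618, 515 and 499 CPM in podocytes, 437, 348 and 356 in mesangial cells and 257, 300 and 237 in endothelial cells, and exceeded the free RNA level in all 9 other ranked classes. In mononuclear phagocytes the margin was small in the male (1.75% of the podocyte level against 1.21%) and female ERaKO (6.32% against 4.53%).

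Efnb1, the ligand placed at the slit diaphragm, reached 497, 439 and 508 CPM in podocytes. Parietal cells followed with 166, 147 and 203 CPM and endothelial cells with 144, 128 and 153. Its podocyte level is well above the others in each library.

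Robo2 (ENSMUSG00000052516, chr16:73891839-74411825, minus strand), the Slit receptor placed at the slit diaphragm, reached 577, 515 and 497 CPM in podocytes. Mesangial cells had 77.6, 44.7 and 91.0 CPM, which is 13.4%, 8.68% and 18.3% of the podocyte level where podocyte markers stood at 1.15%, 1.22% and 1.09%. Thick limb cells (18, 8 and 23 cells, too few to be ranked) had 204, 190 and 298 CPM. Ephb1 (ENSMUSG00000032537, chr9:101922128-102354693, minus strand), a receptor of ephrin-B ligands, reached 165, 129 and 82.5 CPM in podocytes and 73.1, 59.7 and 97.2 in mesangial cells. Its highest class was the podocyte in the male and female libraries and the mesangial cell in the female ERaKO library. With doublets kept, podocytes were its highest class in every library.

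The 5 highest genes in podocytes, Sema3g, Sema5a, Robo2, Efnb1 and Sema3e in varying order, held 86.3%, 87.4% and 86.9% of all member CPM of the class. In endothelial cells the 5 highest held 49.4%, 49.7% and 49.0%, so the endothelial signal was spread over more genes. Ligands made up 75.2%, 76.4% and 75.9% of member CPM in podocytes and 73.2%, 72.9% and 72.3% in endothelial cells. In mesangial cells they made up 45.1%, 42.1% and 41.3%.

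**Figure D2:**
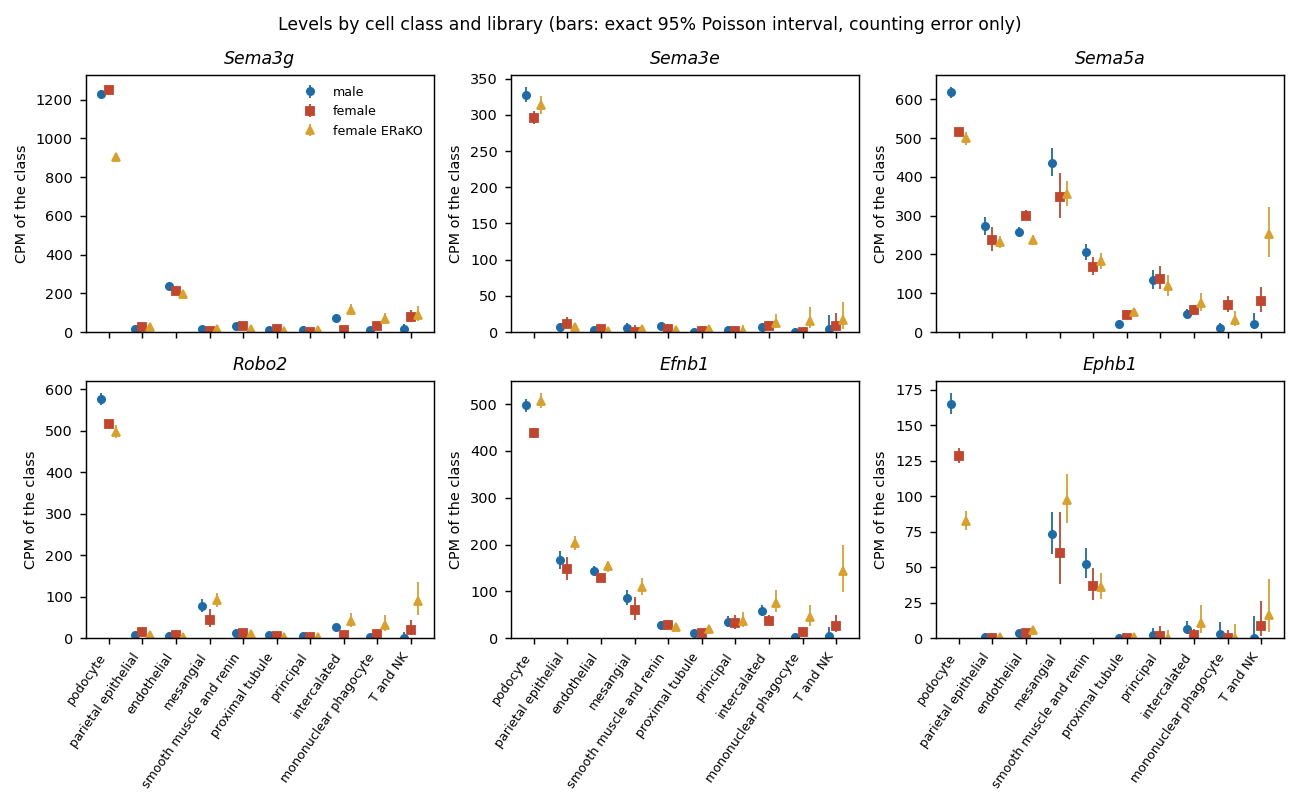
Levels of 6 genes (CPM of the class, linear axes from 0) in the 10 ranked classes, 1 point per library with its exact 95% Poisson interval. Sema3g and Sema3e stand in podocytes, Sema5a also in mesangial, parietal and endothelial cells, and podocyte Ephb1 runs 165, 129 and 82.5 CPM. The raised points in T and NK cells of the female ERaKO library rest on 28 cells in which podocyte markers stood at 16.5% of their podocyte level.

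Efnb2 had the highest level of any member in endothelial cells, at 429, 394 and 449 CPM. Mesangial cells had 229, 259 and 232 CPM of it, and smooth muscle and renin cells 121, 67.3 and 102. Sema6a, a membrane semaphorin, had 123, 140 and 129 CPM in endothelial cells. Sema3f (ENSMUSG00000034684, chr9:107681500-107710475, minus strand), a secreted semaphorin that binds Nrp2, had 140, 132 and 75.2 CPM there, and the female ERaKO value is apart from the other two. Efna1, Sema4c, Sema6d and Sema7a were highest in endothelial cells too, each at 102 CPM or less.

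Of the receptors highest in endothelial cells, Plxna2, a semaphorin receptor, had 144, 147 and 117 CPM, Ephb4 91.7, 96.6 and 93.6, and Robo4 84.8, 84.5 and 93.2. Epha4 had 70.2, 65.0 and 76.7 CPM, and was not highest there in every library when the classes too small to be ranked were counted as well. A Robo4 UMI was found in 45.5%, 50.7% and 58.4% of endothelial cells (22.3%, 22.8% and 24.7% after thinning), and in 0.165%, 0.212% and 0.123% of podocytes. Nrp1, the other neuropilin and no member of the set, reached 2002, 1846 and 1759 CPM in endothelial cells and 2599, 2332 and 2340 in mesangial cells.

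The endothelial class held 4 clusters, and the guidance genes differed between them in a like way in each library. Cluster 17 (60, 26 and 34 cells), led by Esm1, Gja5, Dll4 and Hey1 and scored as arterial-like, had 916, 912 and 980 CPM of Efnb2. Its Ntn4, a netrin of basement membranes, reached 930, 1217 and 781 CPM, above the parietal class, and its Sema3g 650, 492 and 420 CPM. Efna1 reached 415, 229 and 312 CPM in it, against 78.3, 72.5 and 117 in cluster 2. Ephb4 stood at 48.7, 71.6 and 70.6 CPM in it, and at 52.1, 60.6 and 65.1 in cluster 3.

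Cluster 2 (405, 380 and 175 cells), with Ehd3, Kdr and Gpihbp1 among its leading genes and scored as glomerular capillary-like, had Ephb4 at 135, 129 and 149 CPM. Its Efnb2 was higher than its Ephb4, at 563, 534 and 679 CPM. Sema3f stood at 216, 201 and 139 CPM and Sema5a at 419, 481 and 496 CPM, while Sema3g was at 61.2, 62.9 and 59.3 CPM. Haemoglobin genes also led this cluster. Cluster 3 (222, 211 and 209 cells), led by Tspan8 and Thbs2, showed the reverse, with Sema3g at 349, 332 and 266 CPM and Sema5a at 72.2, 70.9 and 74.1 CPM. Sema3g was thus lowest in cluster 2 of each library. The cluster types are not clear-cut. Cluster 12 (83, 71 and 56 cells) also scored highest on the capillary list, at 0.476 against 1.34 in cluster 2. Cluster 3 scored highest on the arterial list, at 0.416 against 2.38 in cluster 17.

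**Figure D3:**
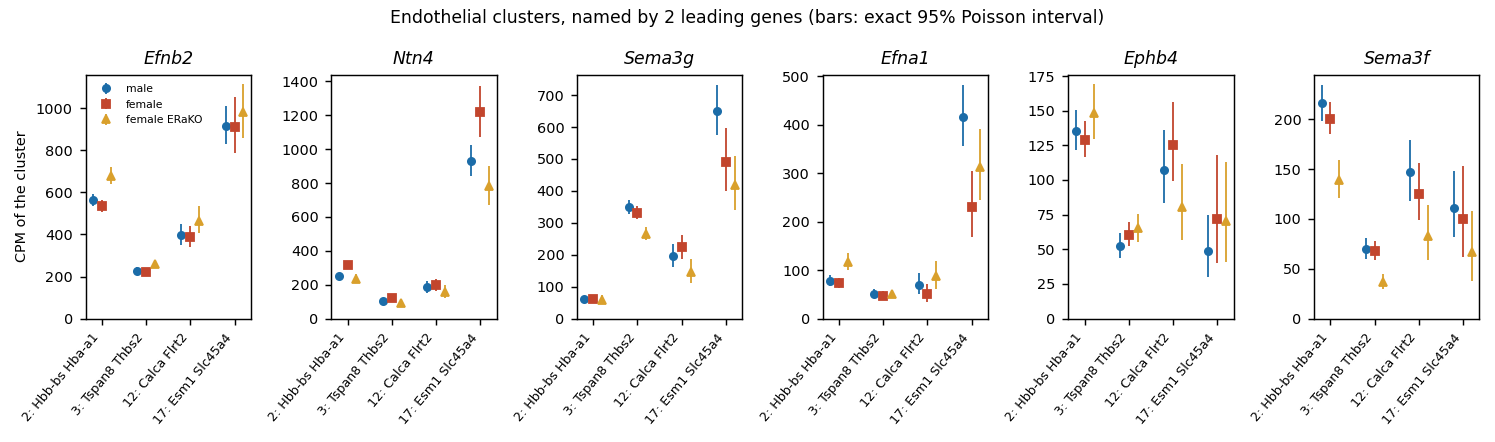
Levels of 6 genes (CPM of the cluster) in the 4 endothelial clusters, each named by its number and 2 leading genes against the other endothelial cells, 1 point per library with its exact 95% Poisson interval. Efnb2, Ntn4, Sema3g and Efna1 are highest in cluster 17, and Sema3f and Ephb4 in cluster 2, where the intervals of Ephb4 overlap those of cluster 12 in the male and female libraries.

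The 5 genes highest in mesangial cells in every library were receptors. Within the class, the ligands Sema5a and Efnb2 still stood above every receptor of the set in each library. Epha3 reached 160, 139 and 126 CPM there and Robo1, a Slit receptor, 150, 139 and 150, and both stood well below that in all other ranked classes. Plxnd1, the receptor of Sema3e, had 133, 174 and 121 CPM in mesangial cells and 117, 109 and 107 in endothelial cells. Endothelial cluster 17 had more, at 213, 215 and 216 CPM. Epha7 and Plxna1 were highest in mesangial cells at lower levels, from 67.8 to 82.0 CPM and from 44.4 to 47.8 CPM. Nrp2 had 142, 201 and 211 CPM in mesangial cells and 146, 104 and 155 in parietal cells, so its highest class changed between libraries. Unc5b, a netrin receptor outside the set, had 99.4, 139 and 136 CPM in mesangial cells. The female mesangial values come from 44 cells.

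Parietal cells had the highest class level of Ntn4, at 428, 438 and 424 CPM, with endothelial cells at 228, 246 and 179 and principal cells at 257, 245 and 140. Sema3c, a secreted semaphorin, had 98.9, 75.0 and 126 CPM in parietal cells. Unnamed clusters were not ranked, and unnamed cluster 10 (79, 41 and 98 cells) had more Sema3c, at 116, 105 and 171 CPM. Epha2, an epithelial Eph receptor, had 41.9, 37.5 and 44.2 CPM. Ntn4 alone was highest there when the 2 classes too small to be ranked, thick limb and urothelial, were counted as well.

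Slit3 (ENSMUSG00000056427, chr11:35121224-35708507, plus strand) was the Slit of the vessel wall in these cells, with 278, 323 and 245 CPM in smooth muscle and renin cells. Its UMIs were found in 73.8%, 82.9% and 67.8% of them, and in 0% (0 of 1210 cells, with an exact upper bound of 0.304%), 0.212% and 0.369% of podocytes. Slit2 had 117, 118 and 140 CPM in intercalated cells and 124, 117 and 99.6 in principal cells, and 334, 340 and 453 in the few thick limb cells.

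Within the smooth muscle and renin class, cluster 8 (121, 94 and 83 cells) held Slit3 at 436, 436 and 430 CPM. Cluster 9 (98, 35 and 107 cells), led by Ren1 and scored as renin-like, had 110, 123 and 88.3 CPM. Cluster 9 had more Ephb1 than cluster 8, at 103, 78.7 and 58.4 CPM against 22.1, 22.2 and 17.3, and more Sema5a, at 310, 245 and 240 CPM against 117, 122 and 110. Slit3 thus was lowest, and Ephb1 and Sema5a highest, in the renin-like cluster of each library.

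**Figure D4:**
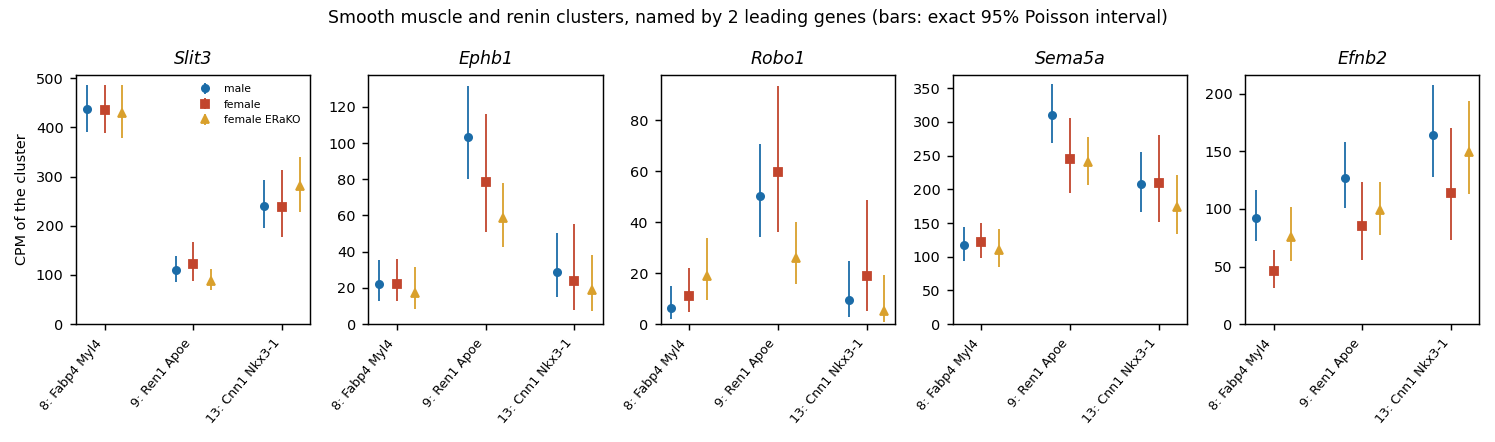
Levels of 5 genes (CPM of the cluster) in the 3 smooth muscle and renin clusters, each named by its number and 2 leading genes against the rest of the class, 1 point per library with its exact 95% Poisson interval. Slit3 is highest in cluster 8, Ephb1, Robo1 and Sema5a in cluster 9.

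Outside the glomerular tuft, Plxnb2, a receptor of class 4 semaphorins, was highest in principal cells at 282, 257 and 328 CPM and above the free RNA level in all 9 other ranked classes. In T and NK cells (43, 42 and 28 cells) Plxnb2 was low, at 1.47%, 3.44% and 7.44% of the principal level. Principal markers stood there at 0.654%, 0% and 0.0763%. Sema3b was highest in intercalated cells at 139, 99.8 and 70.7 CPM, with podocytes at 63.0, 50.4 and 57.1. Podocytes became its highest class in all libraries at resolution 2 and under a stricter cell filter, and parietal cells that of Plxnb2 under that filter. Sema4d was highest in mononuclear phagocytes at 91.0, 86.4 and 86.7 CPM. Efna4 was highest in principal cells at 64.5, 43.7 and 53.9 CPM.

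Ligands were set beside receptors for 57 pairs taken from textbook knowledge. In 44 pairs at least 1 partner had no single highest class at 30 CPM and 20 UMIs in every library, in 4 both had the same class, and in 9 the classes differed. The 4 pairs with a shared class were Efnb2 with Ephb4, Efnb2 with Epha4, Efna1 with Epha4, and Sema6a with Plxna2, all endothelial. The pairs with Epha4, Epha2 or Sema3c depend on the ranked classes. With thick limb and urothelial cells ranked too, Epha4 lost its endothelial place, and Epha2 and Sema3c their parietal one. Slit3 of smooth muscle and renin cells was paired with Robo1 of mesangial cells and Robo2 of podocytes. Podocyte Sema3e and parietal Sema3c were paired with mesangial Plxnd1, and podocyte Efnb1 with endothelial Ephb4. The other 4 were Efna1 with Epha2, Efna4 with Epha2, Sema4c with Plxnb2 and Sema4d with Plxnb2. The placing of Plxnd1 was narrow, its endothelial level being 87.8%, 62.8% and 88.5% of the mesangial one. These are RNA levels in classes and say nothing of contact or binding.

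The question put by the male and female libraries is whether the sexes differ, and by the female ERaKO and female libraries whether the library labelled ERαKO differs from the other female one. Both comparisons use the same female library. A gene counts as measured with at least 100 UMIs in the 2 libraries of a class and as called at 1.5-fold or more on CPM plus 1. The share of all measured genes that were called is given as the background.

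Between the male and the female, podocytes showed no called gene among the 21 measured, beside 2.21% of all genes. Their median log2 ratio was 0.12, and that of all genes 0.02. The 5 leading genes had log2 ratios (male over female, with intervals) of -0.02 (-0.06 to 0.01) for Sema3g, 0.26 (0.22 to 0.31) for Sema5a, 0.16 (0.12 to 0.21) for Robo2, 0.18 (0.13 to 0.23) for Efnb1 and 0.15 (0.08 to 0.21) for Sema3e. Ephb1 was 0.36 higher in the male on that scale, under the call. Parietal cells showed none of 10, beside 9.72%.

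Endothelial cells showed 1 of 23, beside 2.72%: Sema3d, a secreted semaphorin, had 35 UMIs (5.48 CPM) in the male and 77 (11.1 CPM) in the female. In mesangial cells 1 of 12 was called, beside 6.61%: Robo2, with 103 and 18 UMIs (77.6 and 44.7 CPM), a log2 ratio of 0.78 (0.06 to 1.60), and 0.52 with classes set per cell. In smooth muscle and renin cells 1 of 8 was called, beside 5.8%: Efnb2, at 121 and 67.3 CPM. Efnb2 was higher in the male in each of the 3 clusters of that class, and under the call with classes set per cell (0.50) and with doublets kept (0.55). In proximal tubule cells 1 of 2 was called, Sema5a, at 20.6 and 45.3 CPM, beside 30.4% of all genes, whose median log2 ratio there was 0.22. The proximal tubule cells came from different clusters in the 2 libraries, cluster 14 holding most of the male cells and clusters 15 and 21 most of the female ones.

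Between the female ERaKO and the female, 5 of 21 genes were called in podocytes, beside 4.15% of all genes. Ephb1 had the most UMIs of the 5, 608 against 2137 (82.5 and 129 CPM), a log2 ratio of -0.63 (-0.77 to -0.51). It was lower in each podocyte cluster, at 81.6 against 124, 82.1 against 133 and 85.2 against 133 CPM. An Ephb1 UMI was found in 45.2% of female ERaKO and 66.6% of female podocytes, and after thinning in 20.2% and 28.8%, while 0.844% and 1.16% of thinned endothelial cells had one.

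The other 4 were low genes. Efnb2 had 8.55 and 13.6 CPM in podocytes (female ERaKO and female), and Plxna3, a class A plexin, 4.48 and 7.46. Efna5, a lipid-anchored ephrin, had 14.3 and 8.54 CPM, and Sema6c, a membrane semaphorin, 28.2 and 18.2. All 5 lay between 1.52-fold and 1.60-fold, so the count of 5 turns on where the call is set: it was 0 at 2-fold. Of the 5, Ephb1 alone stayed past 1.5-fold in all 10 other settings of its ratio, and podocyte Efnb2 did so in 3. The 5 leading podocyte genes were not called. Sema3g came nearest, with a log2 ratio of -0.47 (-0.51 to -0.43), and was lower in each cluster, at 891 against 1229, 982 against 1372 and 746 against 1055 CPM. Robo2 was at -0.05 (-0.11 to 0.00) and Sema3e at 0.08 (0.01 to 0.15). Median mitochondrial share of podocytes was 6.34% in the female ERaKO library and 5.31% in the female one, and summed podocyte markers 34292 and 34158 CPM. Summed haemoglobin and other erythroid markers were 631 and 8.54 CPM. The part of the mitochondrial share and of the erythroid RNA in these ratios was not tested.

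**Figure D5:**
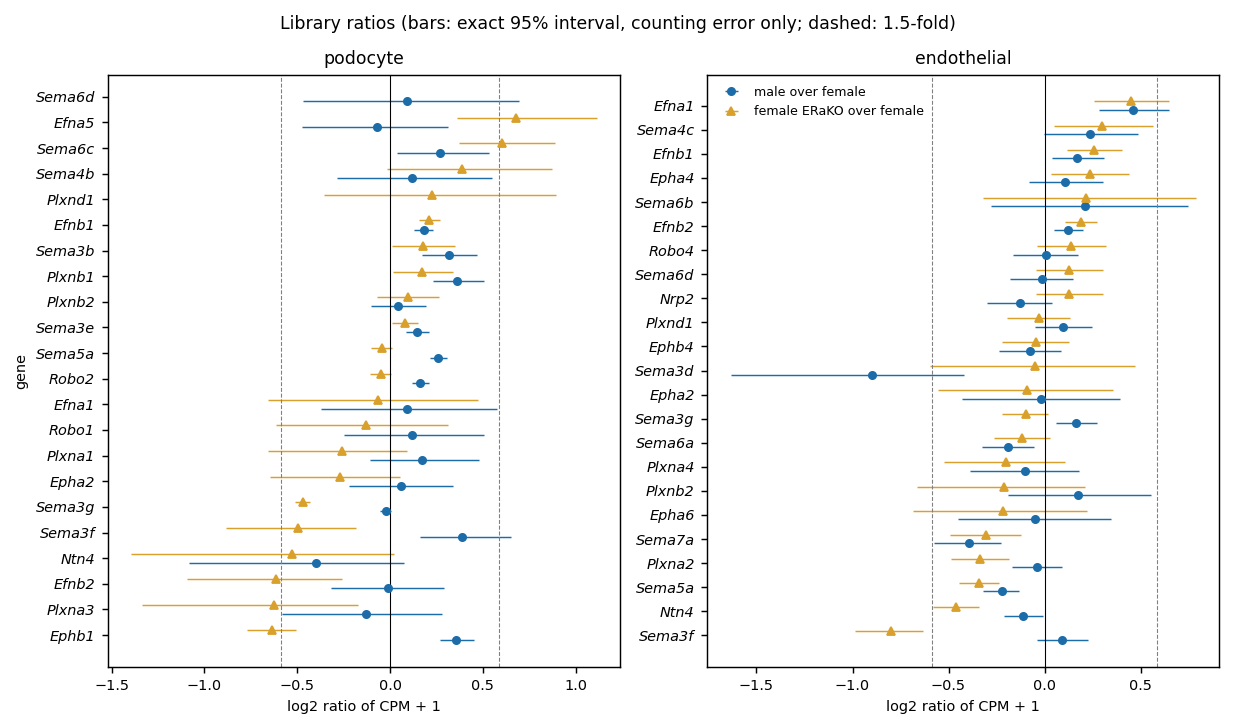
Log2 ratios of CPM plus 1 for every member measured in podocytes (left) and endothelial cells (right), male over female (circles) and female ERaKO over female (triangles), which share the female library, with exact 95% intervals of counting error. Dashed lines mark 1.5-fold, and Ephb1 in podocytes and Sema3f in endothelial cells lie past it in the female ERaKO comparison at -0.63 and -0.80.

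Endothelial cells showed 1 of 23 in the female ERaKO comparison, beside 4.99%: Sema3f, with 360 and 915 UMIs (75.2 and 132 CPM), a log2 ratio of -0.80 (-0.99 to -0.63). The level was lower in all 4 endothelial clusters, at 139 against 201 CPM in cluster 2, 36.3 against 67.7 in cluster 3, 82.9 against 125 in cluster 12 and 66.5 against 100 in cluster 17. The cluster in which Sema3f is highest, cluster 2, held 175 of 474 endothelial cells in the female ERaKO library and 380 of 688 in the female one. Within cluster 2 alone the log2 ratio was -0.52, under the call. A Sema3f UMI was found in 47.3% and 64.2% of endothelial cells, and in 25.1% and 35.5% after thinning. Erythroid markers summed to 33.4 CPM in female ERaKO and 1208 CPM in female endothelial cells. Smooth muscle and renin markers summed to 921 and 509 CPM, and mononuclear phagocyte markers to 106 and 30.5. Their part in the result was not tested.

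Parietal cells showed 3 of 19, beside 9.97%. Sema3c stood at 126 and 75.0 CPM, a log2 ratio of 0.74 (0.39 to 1.13), and Sema3b at 35.6 and 21.4 CPM. Robo1 was lower, at 21.1 and 34.3 CPM, on 84 and 32 UMIs. Robo1 fell under the call in 5 of the 9 other settings, among them -0.28 with each cell put in the class of its highest marker score, and Sema3b in 2, among them 0.42 with doublets kept. Smooth muscle and renin markers, summed, stood at 4186 CPM in female ERaKO and 2555 CPM in female parietal cells, and mesangial markers at 503 and 842 CPM, and their part in these values was not tested.

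In mesangial cells 3 of 11 were called, beside 7.75%, all higher in the female ERaKO library: Robo2 at 91.0 and 44.7 CPM, Efnb1 at 109 and 59.7 and Ephb1 at 97.2 and 59.7. The female values rest on 18, 24 and 24 UMIs, and the intervals reach down to 0.30, 0.23 and 0.07 on the log2 scale. These 3 genes are also podocyte genes. All 19 podocyte markers were detected in mesangial cells of every library, summing to 1252 CPM in the female ERaKO and 1017 CPM in the female library, and their part in the result was not tested. With each cell put in the class of its highest marker score, none of the 3 was called.

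Smooth muscle and renin cells showed 2 of 8, beside 9.58%. Efnb2 was higher, at 102 and 67.3 CPM, and Ntn4 lower, at 52.2 and 82.5. The directions, though not always the 1.5-fold size, were the same in each of the 3 clusters. Ntn4 had 48.3 against 86.0 CPM in cluster 8, 45.4 against 53.5 in cluster 9 and 72.0 against 114 in cluster 13. Efnb2 had 75.9 against 45.8, 98.7 against 85.0 and 149 against 114 CPM. With each cell put in the class of its highest marker score neither was called, at 0.30 and -0.47. The renin-like cluster held 107 of 245 cells in the female ERaKO and 35 of 158 in the female library. In proximal tubule cells 1 of 8 was called, beside 11.8%: Efna1, at 41.4 and 21.4 CPM. Cluster 14 held 37 of the 176 female ERaKO cells and 3 of the 85 female ones. Endothelial markers summed to 92.8 and 56.9 CPM in these cells and smooth muscle and renin markers to 317 and 107, and their part in the result was not tested.

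The wider pathway was read from 4 lists: adaptors of Robo, ephrin-B and Eph (28 of 29 listed genes are in the table), partners of plexins (33), proteases that cut guidance proteins (10), and co-receptors outside the set (24). In podocytes 21, 22, 7 and 12 of them, in the order of the lists, were measured between male and female. The 1 called (background 2.21%) was Nell2, a secreted Robo ligand, at 114 and 60.4 CPM. In the female ERaKO podocytes Nell2 stood at 37.3 CPM against 60.4, and Srgap3, a GTPase-activating protein that binds Robo receptors, at 4.61 against 12.0, while Mmp14, a membrane protease, stood at 7.60 against 4.27. Srgap1 and Srgap2, of the same list as Srgap3, had far higher podocyte levels and were not called. Srgap1 stood at 1046, 823 and 1029 CPM and Srgap2 at 139, 105 and 124. Read against the 4.15% of all genes called in this comparison, the adaptor list gave 0 higher and 1 lower of 20 measured there, with a median log2 ratio of 0.08. The plexin partners gave none of 21, the proteases 1 higher of 7 and the co-receptor list 1 lower of 12, which was the ligand Nell2. In endothelial cells the lists had 19, 25, 6 and 9 genes measured in the female ERaKO comparison, beside 4.99% of all genes called. The 1 partner called was Arhgef11, which class B plexins bind, with a log2 ratio of -0.59. Between male and female none was called of 20, 25, 6 and 9 measured, beside 2.72%. Nck2, an adaptor that binds ephrin-B and nephrin, stood at 77.2, 85.3 and 84.2 CPM in podocytes, and Nck1 at 180, 230 and 185 CPM in endothelial cells.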

How the data were processed

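Single cell suspensions of glomeruli were made into droplet libraries of 3′ tags, 1 per mouse. The authors deposited raw UMI counts per gene and barcode, without normalisation. The submitters' processing notes name mm10, STAR 2.7.5a and Cell Ranger 6.1.2, and the counting options are not given in the sources used here. The male library summed to 44585342 UMIs, the female to 44942380 and the female ERaKO to 47522141. Barcodes under 500 genes or above 25% mitochondrial UMIs were dropped, and 112, 53 and 142 called doublets were removed (Scrublet in scanpy 1.11.5). Cells were clustered with Leiden (leidenalg 0.10.2, resolution 1) on 2000 variable genes without the members, and a cluster was named from marker lists. Of the cells, 7.95%, 6.95% and 10.2% stayed unnamed, among them a cluster led by Cst12 with podocyte genes. Classes with at least 20 cells in every library were ranked, a minimum set after the cell numbers were seen. Free RNA was gauged by the median, over the markers of a class, of their CPM elsewhere as a share of that in their own class. Ratios used a pseudocount of 1 CPM. The script was tested on simulated data. All 65 genes matched GENCODE M21. Members, marker lists, pairs and pathway lists were chosen with earlier results of these data known. Values per library are printed for genes at 100 CPM or more in their highest class or called in a comparison, and partners are named when called in podocytes or endothelial cells. Some further values, such as those of Nck1, Nck2, Srgap1, Srgap2, Nrp1 and Unc5b, were chosen after they were seen.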

Additional observations from a re-analysis of the deposited data

How the results depend on the processing

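No paired analysis was possible because each group is 1 library. The counts of genes highest in podocytes, endothelial, mesangial and smooth muscle and renin cells stayed within 1.5 times under every setting tried; in parietal cells the count was 1 with thick limb and urothelial cells ranked too, a setting chosen after seeing the data. Counts of called genes were less stable. In the female ERaKO comparison podocytes gave 3 at resolution 0.5, 3 with doublets kept, 1 with a pseudocount of 5 CPM and 0 at 2-fold, and endothelial cells 7 with at least 20 summed UMIs and 0 at 2-fold. Mesangial cells gave 0 with classes set per cell, 6 with at least 20 UMIs and 1 at 2-fold. Between male and female, mesangial cells gave 2 with a stricter cell filter, 2 with doublets kept, 4 with at least 20 UMIs and 0 at 2-fold, endothelial cells 6 with at least 20 UMIs and 0 at 2-fold, and podocytes 1 with at least 20 UMIs. The other classes varied as much. For male and female, parietal cells gave 1 at resolution 2, 1 with classes set per cell, 2 with doublets kept and 6 with at least 20 UMIs; smooth muscle and renin cells 2, 2, 3 and 0 (classes set per cell, doublets kept, at least 20 UMIs, 2-fold); and proximal tubule cells 3 at resolution 0.5, 0 with the stricter filter, 2 with doublets kept, 2 with median-of-ratios scaling and 6 with at least 20 UMIs. For female ERaKO and female, parietal cells gave 5 with doublets kept, 9 with at least 20 UMIs and 0 at 2-fold. Smooth muscle and renin cells gave 4 with doublets kept, 1 with median-of-ratios scaling, 1 with a pseudocount of 5 CPM, 7 with at least 20 UMIs and 0 at 2-fold, and proximal tubule cells 5 at resolution 0.5, 3 with classes set per cell, 0 with the stricter filter, 6 with at least 20 UMIs and 0 at 2-fold. The cause was not tested, beyond the lower minimum admitting genes of few UMIs and the higher fold removing genes between 1.5-fold and 2-fold. Of 383 recomputed values of 41 log2 ratios, 371 stayed within the counting interval of the main value, 11 left it and 1 changed sign: Sema5a between male and female proximal tubule cells, at 0.0090 with classes set per cell. Podocyte Ephb1 in the female ERaKO comparison ran from -0.66 to -0.60. Of the 19 called ratios, 4 stayed past 1.5-fold in every setting of the ratio. Depth limits the female values of the small classes, mesangial cells among them.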
